A study of Saccharomyces cerevisiae with 2 samples.

Results

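The glycerol genes of *Saccharomyces cerevisiae* were taken as 10 named genes for the synthesis, use and transport of glycerol: *GPD1*, *GPD2*, *GPP1*, *GPP2*, *GUT1*, *GUT2*, *STL1*, *FPS1*, *GCY1* and *DAK1*. They were found by gene symbol or synonym in the annotation of the array, in which each had 1 probe set, the short probes that together measure its mRNA. The 10 genes stand among 5656 genes with a probe set named for 1 gene, and the rule for them uses names and no measured value, although the list was drawn up with earlier results of these data known. RNA came from 2 samples of 1 group, the *sdh3*Δ strain, a deletion of the membrane anchor subunit of succinate dehydrogenase made by allele replacement in a laboratory strain of mating type a that carries *SUC2*, *MAL2-8C* and a *ura3* mutation. The cells grew in aerobic batch culture in minimal medium with added uracil, which that mutation makes necessary, and were taken when glucose had reached 20 ± 2 g/liter. No treatment separates the replicates, and whether they came from separate cultures is not stated, so the spread between them may be technical. The reference strain's arrays belong to an earlier study and were not analysed here, so the values below are levels in the mutant and their error, with no comparison between strains and no test.

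In yeast, glycerol is made from dihydroxyacetone phosphate, an intermediate of glycolysis. An NADH-dependent dehydrogenase reduces it to glycerol 3-phosphate, and a phosphatase then releases glycerol. The route gives back cytosolic NAD+ when respiration does not, and glycerol is also the main compatible solute of yeast cells under osmotic stress. For use as a carbon source, glycerol is phosphorylated by a kinase and oxidised by a mitochondrial FAD-dependent dehydrogenase, whose genes are known to be repressed by glucose. A second route runs through dihydroxyacetone.

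Background was set by the brightest of 19 control probe sets for genes absent from yeast, which was 54.8 on the array of replicate 1 and 92.1 on that of replicate 2. A value at or below its array's limit shows only that the signal was not above background. All 19 control probe sets were brighter on replicate 2, by 1.37-fold to 1.85-fold, whereas the median log2 ratio of replicate 2 over replicate 1 was -0.12 over all genes. *SDH3*, the deleted gene, gave 22.0 and 29.3, not above background in either replicate. On the log2 scale the replicates had a Pearson correlation of 0.91 across 9324 probe sets with values above 0, which are not independent replicates, and no probe set had the same value on both arrays.

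Transcripts for glycerol synthesis were detected in full, those for use and transport in part. Of the 10 glycerol genes, 7 were above background in both replicates, against 40.0% of all genes. They were the 4 genes of synthesis, the kinase gene *GUT1*, the channel gene *FPS1* and the dihydroxyacetone kinase gene *DAK1*. *GUT2* was above background in replicate 1 alone, and *STL1* and *GCY1* in neither. Each value is an average over the cells of a culture, in which fewer expressing cells and less RNA per cell cannot be told apart. Probe sets bind their targets with different strength, so intensities of different genes were not ranked.

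**Figure D1:**
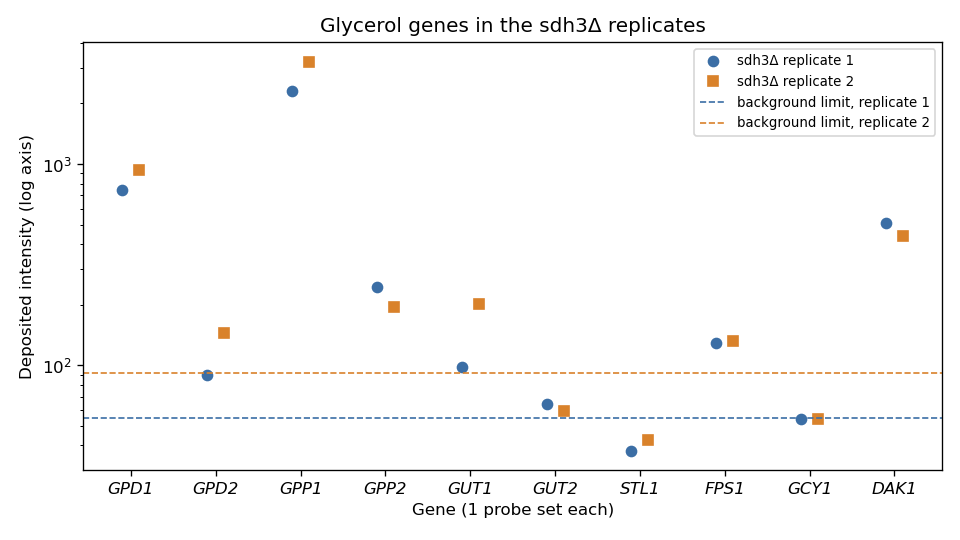
Deposited intensity (log axis) of the 10 glycerol genes in *sdh3*Δ replicate 1 (circles) and replicate 2 (squares), with each array's background limit as a dashed line in the same color. Points of 7 genes lie above their own array's limit in both replicates; *STL1* and *GCY1* lie below it in both, and heights of different genes are not comparable because each has its own probes.

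*GPD1* encodes the glycerol 3-phosphate dehydrogenase known for its induction by osmotic stress. Its intensity was 743 in replicate 1 and 939 in replicate 2, a mean of 841 ± 139 (SD, n = 2). Both values stood far above background, at 13.5 and 10.2 times the limits of their arrays. *GPD2*, the isoenzyme known for its role under anaerobic conditions, gave 89.4 and 144, a mean of 117 ± 38.9 (SD, n = 2). Replicate 2 was higher by 1.61-fold, and the values stood at 1.63 and 1.57 times the background limits. The difference was 1.63-fold with the median of the control probe sets subtracted on each array and 1.96-fold with ratios centred along intensity. Whether the probes of *GPD2* also bind transcripts of *GPD1* was not analysed here.

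The phosphatases that complete the route are encoded by *GPP1* and *GPP2*, of which *GPP2* is the one known for its osmotic induction. For *GPP1* the intensity was 2307 in replicate 1 and 3218 in replicate 2, with a mean of 2763 ± 644 (SD, n = 2). *GPP2* went the other way, with 246 in replicate 1 and 195 in replicate 2 and a mean of 221 ± 36.0 (SD, n = 2). The 2 genes are close in sequence, and how far their probes share targets was not analysed here, so a single value of either remains uncertain to that extent. The ratio of *GPP1* to *GPP2* within an array was 1.76 times as high in replicate 2 as in replicate 1, a value that no common factor for an array can alter. It was 1.50 times with ratios centred along intensity and 2.03 times with the median of the control probe sets subtracted. For *GPD1* over *GPD2* the ratio was 0.783 times as high in replicate 2, 0.497 times with that centring and 0.766 times with that subtraction. Neither was tested, and the log2 ratio of single genes between these replicates had an SD of 0.73 over all genes.

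In the use of glycerol, *GUT1*, the glycerol kinase, had the largest fold difference between the deposited values of the replicates among the 10 genes. Its values were 98.5 in replicate 1 and 201 in replicate 2, a mean of 150 ± 72.6 (SD, n = 2), at 1.80 and 2.18 times the background limits. The difference of 2.04-fold made it the 1 glycerol gene of 10 past 2-fold, against 16.7% of all genes. The difference fell to 1.96-fold when the median log2 ratio of all probe sets was set to 0. It was 2.22-fold with the median of all genes set to 0 and 2.25-fold with the median of the control probe sets subtracted. Among the 564 other genes in the same decile of mean intensity, 22.5% differed more between the replicates. *GUT2*, the mitochondrial glycerol 3-phosphate dehydrogenase, gave 64.3 and 59.5, a mean of 61.9 ± 3.44 (SD, n = 2). The 2 values were close, but the second lay at 0.646 times the background limit of its array, so only replicate 1 showed signal above background.

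Between the transport genes, detection differed. *FPS1*, the aquaglyceroporin through which glycerol leaves the cell, gave 130 in replicate 1 and 133 in replicate 2, a mean of 131 ± 1.91 (SD, n = 2). It was above background in both, at 2.37 and 1.44 times the limits. *STL1*, the glycerol-proton symporter that takes glycerol up and is known to be repressed by glucose, gave 37.7 and 42.8, at 0.688 and 0.465 times the limits. Its mean of 40.2 ± 3.60 (SD, n = 2) is therefore not a level, and the limits of 54.8 and 92.1 bound its signal.

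The route through dihydroxyacetone is represented by *GCY1*, a glycerol dehydrogenase of the aldo-keto reductase family, and *DAK1*, a dihydroxyacetone kinase. *DAK1* gave 508 in replicate 1 and 439 in replicate 2, a mean of 474 ± 48.8 (SD, n = 2), with both values above background. *GCY1* gave 54.2 and 53.9, a mean of 54.1 ± 0.260 (SD, n = 2), the smallest SD of the 10 genes. In replicate 1 *GCY1* lay just under the limit, at 0.989 times its value, and in replicate 2 at 0.585 times. The agreement of the 2 values is thus one between signals that were not above background.

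The log2 ratio of replicate 2 over replicate 1 ranged from -0.33 for *GPP2* to 1.03 for *GUT1*, with a median of 0.11 over the 10 genes against -0.12 over all genes. As deposited, replicate 2 was higher for 6 of them and lower for 4, against 44.1% of all genes higher and 55.9% lower. This split moved with the scale of the arrays, to 5 and 5 with all probe sets centred and to 8 and 2 with the median of all genes set to 0. For 8 of the 10 genes, all but *GPD2* and *GUT1*, the difference was smaller than the median difference of the genes in the same decile of mean intensity. Over all genes, as many lie below such a median as above it by definition. Of the 24 further genes described below, 16 lay below it, and neither count was tested. With *GPD1*, 71.3% of the other genes in its decile differed more between the replicates, with *GPP1* 63.9%, with *DAK1* 83.5% and with *GPD2* 40.5%. These shares and the count of 8 use ratios as deposited, and the order depends on that scale. With ratios centred along intensity the difference was 1.03-fold for *GPD1*, 1.04-fold for *GPP1*, 1.50-fold for *DAK1* and 1.96-fold for *GPD2*. *DAK1* thus differed less than *GPD1* and *GPP1* as deposited, but more with that centring.

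**Figure D2:**
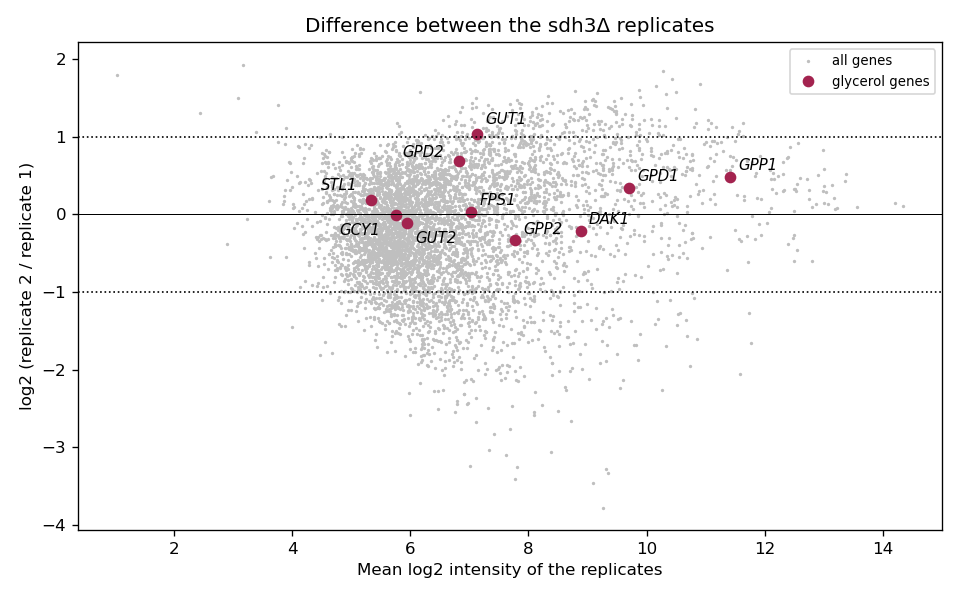
Log2 ratio of *sdh3*Δ replicate 2 over replicate 1 against the mean log2 intensity of both, for all 5656 genes (gray) and the 10 glycerol genes (red, named), with dotted lines at a 2-fold difference. *GUT1* sits just above the upper dotted line at 1.03, and the other 9 glycerol genes lie between -0.33 and 0.69.

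A wider list held 24 further genes that act beside these enzymes or regulate them. Among them were paralogs of the enzymes, enzymes of triose and glycerol phosphate metabolism, transport proteins and their regulators, and transcription factors and kinases of the osmotic and carbon source responses. All 24 were measured, and 13 were above background in both replicates, against 40.0% of all genes. The paralog of *DAK1*, *DAK2*, gave 61.4 in replicate 1 and 105 in replicate 2, a mean of 83.4 ± 31.2 (SD, n = 2). In each replicate it was barely above background, at 1.12 and 1.14 times the limit. Whether the probes of *DAK2* also bind transcripts of *DAK1* was not analysed here. *YPR1*, an aldo-keto reductase related to *GCY1*, gave 294 and 134, a mean of 214 ± 114 (SD, n = 2). It was above background in both replicates, unlike *GCY1*, and was the 1 gene of the 24 past 2-fold, against 16.7% of all genes, with replicate 1 higher by 2.20-fold.

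The following genes of the wider list were named after their values were seen. Signals of *GUP2*, *YIG1*, *GIT1*, *ADR1*, *INO4* and *HOT1* were not above background in either replicate, and among them *ADR1* encodes an activator of genes for non-fermentable carbon sources, *GUT1* included, and *HOT1* an activator of osmotic stress genes such as *GPD1* and *STL1*. *GPT2*, *INO2*, *RSF2*, *MSN4* and *SKO1* were above background in replicate 1 alone, where the limit was 54.8 against 92.1 in replicate 2. Such a call does not by itself mean a lower signal in replicate 2. *INO2* was higher there, with 58.0 and 63.7, whereas *GPT2*, *RSF2*, *MSN4* and *SKO1* were lower. *HOG1*, the kinase of the osmosensing pathway, was above background in both replicates, with 311 in replicate 1 and 231 in replicate 2. Among other regulators above background in both were *MSN2*, with 144 and 196, and *OPI1*, with 128 and 99.6. *TPI1*, whose enzyme interconverts dihydroxyacetone phosphate and glyceraldehyde 3-phosphate, gave 5685 and 5856 and differed by 1.03-fold.

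**Figure D3:**
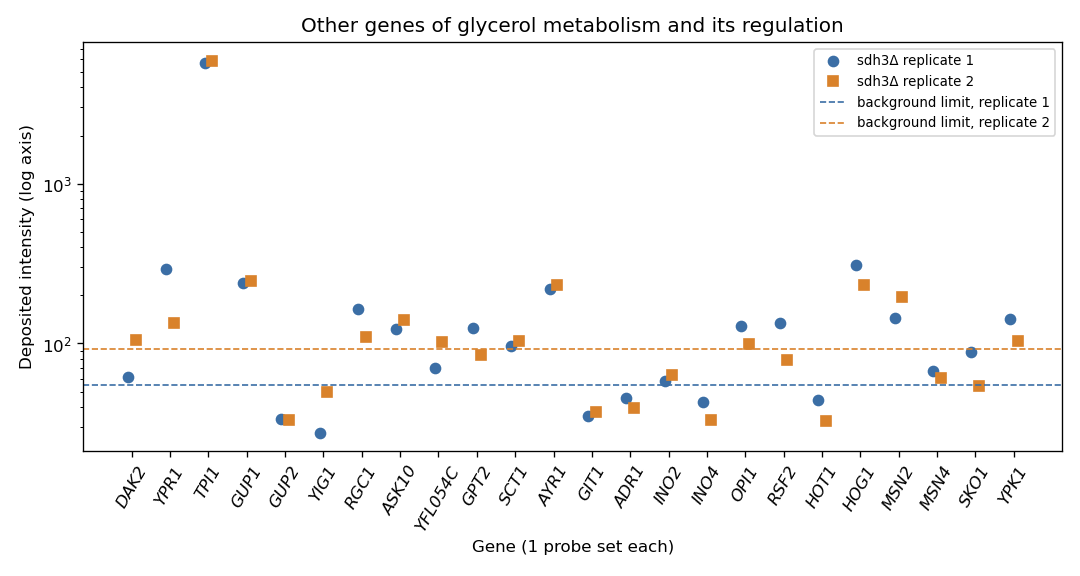
Deposited intensity (log axis) of 24 further genes of glycerol metabolism and its regulation in *sdh3*Δ replicate 1 (circles) and replicate 2 (squares), with each array's background limit as a dashed line. In both replicates 13 genes lie above their own array's limit and 6 lie below it, and *YPR1* is the gene with the widest gap, 294 against 134.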

How the data were processed

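The deposited table holds a linear intensity per probe set and array for 2 *sdh3*Δ samples on Affymetrix Yeast Genome S98 arrays with 9335 probe sets. Scans were scaled by the authors in Microarray Suite (MAS5, version 5, in the submitters' processing notes), who then normalized and summarised them with the Perfect Match model of dChip. Because the arrays were brought to a common scale, a shift shared by all genes cannot be seen.

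Gene names came from the platform's annotation, updated by gene ID through the R64 table. Where a gene had several probe sets, log2 values of its plain ones (names ending in _at with no further letter) were averaged, and other kinds served where it had none. The 11 probe sets with a value at or below 0 were left out. Values are given as mean ± SD of the linear intensities. Deciles of mean intensity were taken over all genes. The code for ratios was tested on simulated data. The number of arrays limits the precision.

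The genes named by plan are the 10 members, *SDH3*, *DAK2*, *YPR1* and any gene of the wider list past 2-fold between replicates. Further genes of the wider list were named after their values were seen. Members and lists were chosen with earlier results of these data known. The planned promoter motifs and protein identities were not analysed here. Shared probe targets were therefore not checked for *GPD1* with *GPD2*, *GPP1* with *GPP2*, *DAK1* with *DAK2* or *GCY1* with *YPR1*. Alternatives were the background limit, the scale of the arrays, the probe sets used and each replicate alone. Python 3.11.15, numpy 2.4.6, pandas 2.3.3 and matplotlib 3.10.9 were used.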

Additional observations from a re-analysis of the deposited data

How the results depend on the processing

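No paired analysis was possible because the samples form 1 group. The count of 7 glycerol genes above background in both replicates held with the second highest control as limit. Each of the 10 genes had 1 probe set, so using every annotated probe set could not change the count. The count was 9 with the median control as limit, passed by 4042 of all 5656 genes. With 1 array alone it lay between 7 and 8. *GUT1* was the 1 gene past 2-fold. With the median log2 ratio of all probe sets set to 0, *GUT1* had 0.97 and 0 were past it, against 17.5% of all genes. With the median of the control probe sets subtracted on each array, chosen after seeing the data, 3 were past it, *GUT1*, *GUT2* and *GCY1*. The last 2 had replicate 2 values of 59.5 and 53.9, near its median of 47.0. Of all genes with a value, 45.5% were past 2-fold. The median log2 ratio over the glycerol genes was 0.11 as deposited, 0.04 with all probe sets centred, 0.17 with centring along intensity, 0.23 with the median of all 5656 genes set to 0, also chosen after seeing the data, and 0.50 with values raised to background. Its sign turned to -0.23 with the control median subtracted, where *STL1* had no value. With replicate 2 rescaled, the means of *FPS1* (128) and *GCY1* (52.9) moved by more than their SD, those of the other glycerol genes by less. A geometric mean of 2 values always lies within 1 SD of their mean and could not show a shift. On the wider list, 3 genes were past 2-fold with centring along intensity, against 13.8% of all genes. With the control median subtracted 7 were, against the 45.5% above. Signals near background, as for *GUT2*, *STL1*, *GCY1* and *DAK2*, limit what can be said of those genes.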
